A study of Rattus norvegicus with 3 samples.

Results

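The genes described here are 10 astrocyte markers and glutamate transporters: Gfap, Aqp4, Aldh1l1, Slc1a3, Slc1a2, Gja1, Gjb6, S100b, Aldoc and Sox9. They were chosen by gene symbol. All 10 were found among the 19113 genes listed for the basolateral amygdala (BLA). All 10 were also among the 16775 genes tested, which were protein-coding and averaged more than 1 scaled count. A scaled count is a gene's reads after division by its library's size factor. Of the 10 genes, 7 averaged 1000 scaled counts or more.

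The series asked how gaining and then losing an enriched environment affects the BLA of adult male Sprague-Dawley rats. ER rats (enrichment removed) were taken out of an enriched cage after a period of enrichment, EE rats (environmentally enriched) stayed in it, and SH rats (standard housing) never had it. RNA from tissue punches was pooled over 10 rats per condition, and 1 library was sequenced from each pool. Per the methods of the study, ER rats lived singly after removal, EE rats shared the large cage in their active phase and were single by day, and SH rats lived in pairs. Social housing and enrichment therefore cannot be told apart in these contrasts.

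Astrocytes clear glutamate that neurons release at synapses, chiefly through a pair of transporters in their membranes, and return it to neurons as glutamine. They are joined to one another by gap junctions built of connexins, and their endfeet wrap blood vessels and carry the water channel aquaporin-4. In the amygdala, as elsewhere in the forebrain, glutamate uptake by astrocytes limits how far and how long excitatory signals spread.

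The libraries held 29558555 (ER), 29263063 (EE) and 30334384 (SH) reads. Each ratio below is a ratio of scaled counts, and the range after it is the exact 95% binomial (Clopper-Pearson) interval from the reads. With 1 library per condition there is no replicate error and no p-value. The intervals cover counting error only, so an interval that excludes 1 sets 2 libraries apart, not 2 conditions. A gene passed the size rule when its libraries differed 1.5-fold or more and the interval left out 1. Markers of astrocytes, neurons and oligodendrocytes were read in each library. Fewer cells of a type and less RNA per cell cannot be told apart in such bulk samples. Counts were not divided by transcript length, so levels are compared between libraries and not between genes.

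The 10 astrocyte genes were nearly level across the 3 libraries. None passed the size rule in any contrast. Over all genes tested the rule was passed by 2.13% in EE against SH, 1.68% in ER against SH and 1.70% in ER against EE. Of the 30 ratios (10 genes in 3 contrasts), 28 lay within 1.1-fold of 1, and the extremes were 0.883 and 1.07. The interval included 1 for 23 ratios, lay above 1 for 3 and lay below 1 for 4. The ends of all 30 intervals stayed between 0.794 and 1.20. For each gene the highest library exceeded the lowest by 1.01-fold to 1.13-fold.

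**Figure D1:**
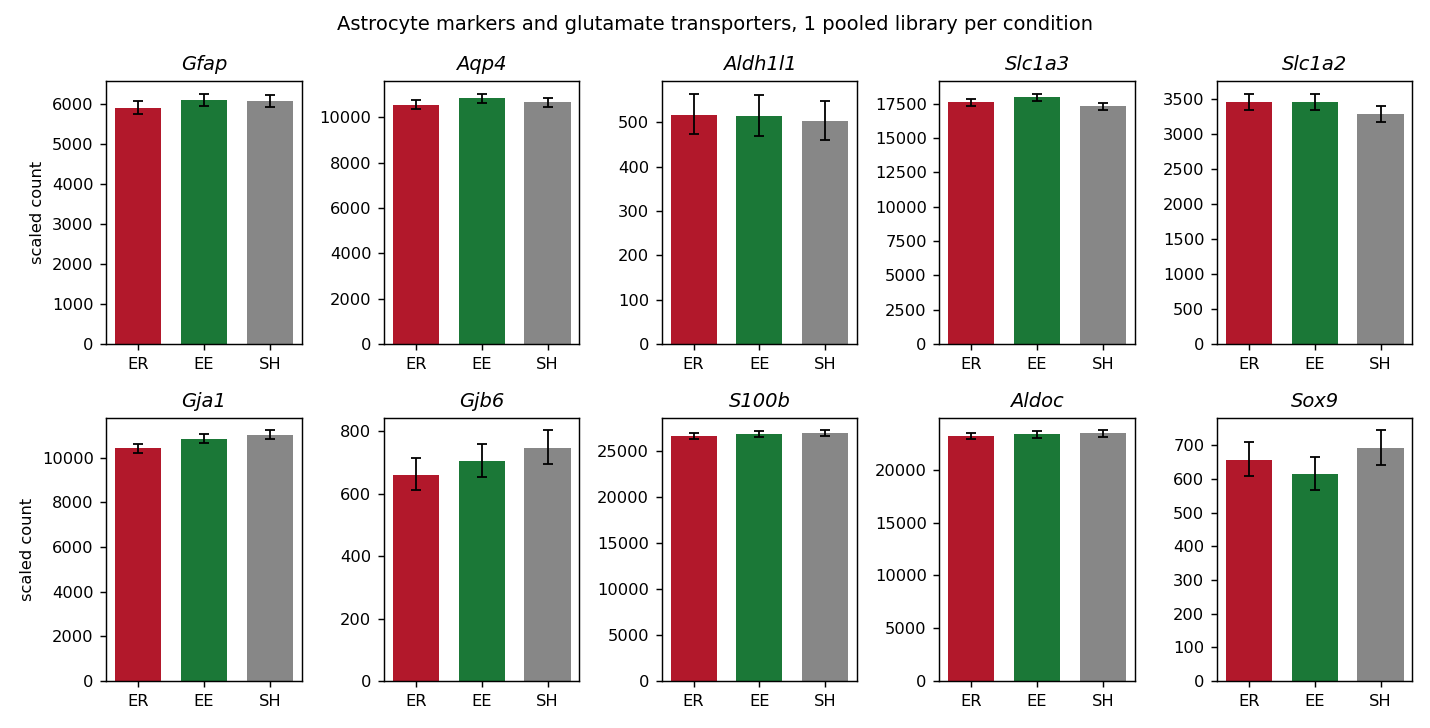
Scaled counts of the 10 genes in the ER, EE and SH libraries, one panel per gene with its own vertical axis from 0. Bars are single pooled libraries and whiskers are exact 95% Poisson intervals of the reads. The 3 bars of each gene differ by at most 1.13-fold.

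The glutamate transporters were a little lower in SH than in the other libraries. Slc1a3, which encodes the transporter GLAST (EAAT1), had scaled counts of 17612 in ER, 17969 in EE and 17309 in SH. Its ratio was 1.04 (1.02 to 1.06) in EE against SH, 1.02 (0.996 to 1.04) in ER against SH and 0.980 (0.960 to 1.001) in ER against EE. Only the first of these intervals excluded 1. Slc1a2, which encodes GLT-1 (EAAT2), the main glutamate transporter of the adult forebrain, had 3454 in ER, 3458 in EE and 3287 in SH. Its ratio was 1.05 (1.002 to 1.10) in EE against SH and 1.05 (1.001 to 1.10) in ER against SH. ER and EE were level for Slc1a2, with a ratio of 0.999 (0.952 to 1.05). The lower ends of both Slc1a2 intervals against SH sat at the edge of 1. When the libraries were scaled by their totals or by their upper quartiles, the interval of ER against SH included 1.

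The upstream sequences of the transporter genes are printed beside those of 2 markers, Gfap and Aldoc, whose intervals included 1 in every contrast. Each is the 250 bases before the annotated gene start (positions -250 to -1), 5′ to 3′ on the gene's strand, from RefSeq on build GRCr8. The table holds 3 starts for Slc1a3 and 2 for Slc1a2, and the window shown, with its motifs, is that of the outermost start only. Capitals mark matches to the motifs listed after them.
Slc1a2 (chr3:109459859-109460108, plus strand): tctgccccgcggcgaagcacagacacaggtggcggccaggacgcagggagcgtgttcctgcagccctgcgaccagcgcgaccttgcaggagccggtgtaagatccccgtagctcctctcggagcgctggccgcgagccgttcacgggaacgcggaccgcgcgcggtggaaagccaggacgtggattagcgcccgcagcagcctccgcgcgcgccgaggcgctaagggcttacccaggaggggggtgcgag
Slc1a3 (chr2:59557809-59558058, minus strand): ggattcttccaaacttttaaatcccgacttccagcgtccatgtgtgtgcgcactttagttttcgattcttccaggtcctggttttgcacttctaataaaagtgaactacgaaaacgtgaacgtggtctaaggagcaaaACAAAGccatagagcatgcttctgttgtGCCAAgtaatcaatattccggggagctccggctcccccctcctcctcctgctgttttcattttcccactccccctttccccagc
Gfap (chr10:88361662-88361911, minus strand): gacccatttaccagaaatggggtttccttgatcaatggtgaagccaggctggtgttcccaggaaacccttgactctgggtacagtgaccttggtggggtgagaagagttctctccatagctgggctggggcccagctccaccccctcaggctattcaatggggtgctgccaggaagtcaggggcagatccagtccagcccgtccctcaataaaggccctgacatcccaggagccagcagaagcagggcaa
Aldoc (chr10:63715294-63715543, plus strand): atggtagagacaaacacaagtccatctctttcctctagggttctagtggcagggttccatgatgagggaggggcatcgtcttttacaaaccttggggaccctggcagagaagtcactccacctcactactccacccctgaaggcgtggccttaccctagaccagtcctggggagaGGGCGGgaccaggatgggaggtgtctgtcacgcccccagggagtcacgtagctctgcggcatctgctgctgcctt

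Motifs were searched on both strands of these windows, and none overlapped another. The Slc1a3 window held ACAAAG, a form of the SOX motif, at position -112. It also held GCCAA, the reverse complement of the nuclear factor I motif TTGGC, at position -84. The Aldoc window held the GC box GGGCGG at position -75. Over 33469 windows of the same length, ACAAAG was in 16.3%, TTGGC in 40.3% and GGGCGG in 30.5%. These motifs are thus common in any such window. The other forms searched were ACAATG (11.1% of windows), the AP-1 motif TGANTCA (6.34%), the STAT motif TTCNNNGAA (7.67%), TATAAA (12.9%) and CCAAT (34.0%). None of these letters was in the 4 windows, and neither the Slc1a2 nor the Gfap window held any motif searched. A match is a description of the letters and not a site of binding.

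The gap junction genes were highest in SH and lowest in ER. Gja1, which encodes connexin 43, the main astrocyte connexin, had 10417 in ER, 10855 in EE and 11025 in SH. Its ratio was 0.945 (0.920 to 0.971) in ER against SH, 0.960 (0.934 to 0.986) in ER against EE and 0.985 (0.959 to 1.01) in EE against SH. It was the only one of the 10 genes with an interval below 1 in ER against EE, although Aqp4 and Slc1a3 joined it when the libraries were scaled by totals or upper quartiles. Gjb6, which encodes connexin 30, had 661 in ER, 704 in EE and 748 in SH. Its ratio was 0.883 (0.794 to 0.983) in ER against SH. Its ratios of 0.938 (0.841 to 1.05) in ER against EE and 0.941 (0.847 to 1.05) in EE against SH had intervals that included 1. Both connexin genes were thus ordered ER, EE, SH from low to high, but the EE and SH libraries did not differ beyond counting error for either. With scaling by the neuronal list, however, the interval of Gja1 in EE against SH lay below 1.

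Aqp4 encodes aquaporin-4, the water channel of astrocyte endfeet. It had 10561 in ER, 10835 in EE and 10652 in SH. Its ratio was 1.02 (0.990 to 1.05) in EE against SH, 0.991 (0.965 to 1.02) in ER against SH and 0.975 (0.948 to 1.002) in ER against EE. No pair of libraries differed beyond counting error. Gfap encodes the intermediate filament protein of astrocytes, whose level is widely used as a sign of astrocyte reactivity. It had 5921 in ER, 6112 in EE and 6078 in SH. Its ratio was 1.01 (0.970 to 1.04) in EE against SH, 0.974 (0.940 to 1.01) in ER against SH and 0.969 (0.934 to 1.005) in ER against EE. Again all 3 intervals included 1, and each lay within 1.1-fold of 1, on counting error between single libraries only.

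The most heavily read members were the most level. S100b encodes a calcium-binding protein of astrocytes that some oligodendrocytes also make. It had 26635 in ER, 26891 in EE and 26936 in SH, with ratios from 0.989 to 0.998. Aldoc encodes the brain aldolase of glycolysis, which is found in astrocytes and in Purkinje cells of the cerebellum. It had 23191 in ER, 23375 in EE and 23460.0 in SH, with ratios from 0.989 to 0.996. No interval of either gene excluded 1 in any contrast, except that of S100b in ER against SH, which lay below 1 with scaling by the neuronal list.

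Aldh1l1, a folate enzyme used to mark astrocytes across the brain, had fewer reads and therefore wider intervals. Its scaled counts were 517 in ER, 513 in EE and 502 in SH. The ratio was 1.02 (0.901 to 1.16) in EE against SH, 1.03 (0.909 to 1.17) in ER against SH and 1.01 (0.889 to 1.14) in ER against EE. At this depth a difference of the size seen for the transporters was not detectable in Aldh1l1. Sox9, a transcription factor that specifies glia and in the adult forebrain marks astrocyte nuclei, had 658 in ER, 614 in EE and 691 in SH. Its ratio was 0.889 (0.795 to 0.993) in EE against SH. The ER library lay between the others, at 0.951 (0.853 to 1.06) against SH and 1.07 (0.956 to 1.20) against EE. Sox9 was the only one of the 10 genes with EE as the lowest library, and its interval against SH included 1 at a level of 99%.

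**Figure D2:**
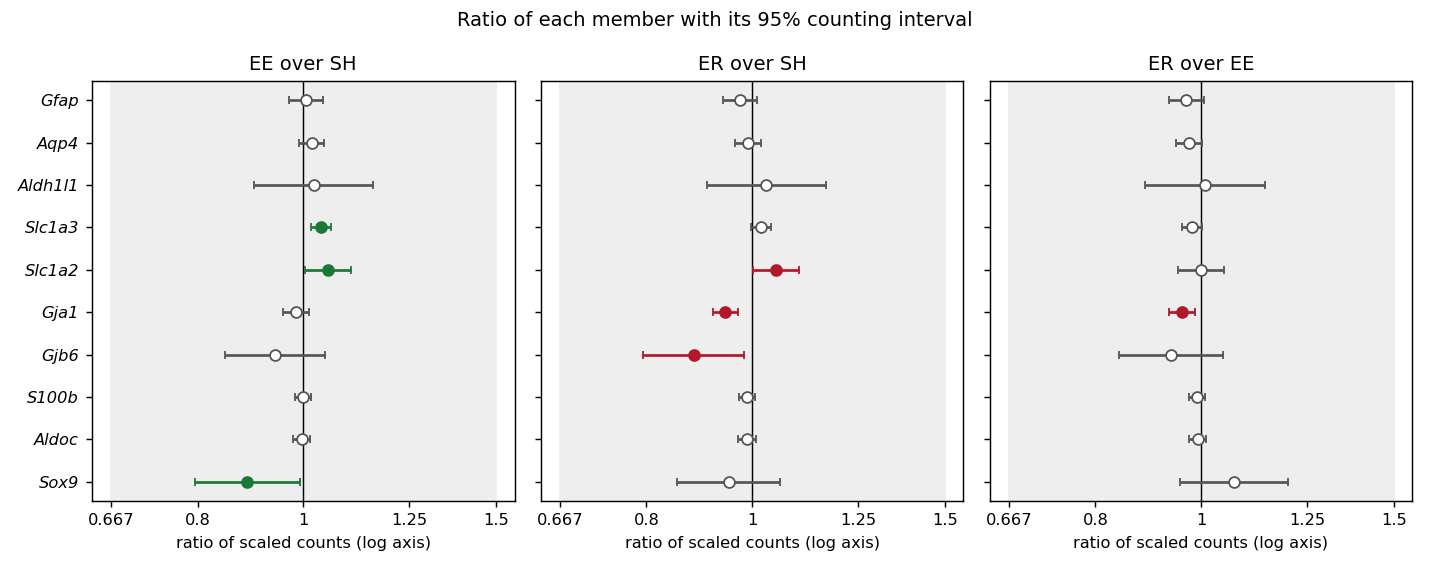
Ratio of scaled counts of each gene (horizontal, log axis) in EE over SH, ER over SH and ER over EE, with exact 95% counting intervals. Filled points have an interval that excludes 1, and the grey band marks ratios under the 1.5-fold size rule. All 30 intervals lie inside the band.

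The contrasts were next counted one by one. In EE against SH, 2 of the 10 genes had an interval above 1 (Slc1a2 and Slc1a3) and 1 had an interval below 1 (Sox9). Over all genes tested, 9.27% lay above and 8.94% below. Since narrow intervals come with many reads, genes averaging 1000 or more are a closer background, and of these 14.6% lay above and 15.4% below. In ER against SH, 1 of the 10 lay above 1 (Slc1a2) and 2 lay below (Gja1 and Gjb6). The background was 7.59% above and 7.89% below over all genes tested, and 12.1% and 13.9% at averages of 1000 or more. In ER against EE, 0 of the 10 lay above 1 and 1 lay below (Gja1), beside 6.47% above and 6.50% below over all genes tested and 9.36% and 9.75% at averages of 1000 or more. With 10 genes, 1 or 2 calls are near these background shares in all 3 contrasts.

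The medians of the 10 genes were also near those of all genes. The median log2 ratio (pseudocount 1) was 0.0029 in EE against SH, where that of all genes tested was 0.0022. It was -0.016 in ER against SH, beside 0.0021 over all genes. In ER against EE it was -0.021, beside -0.0028. All 7 genes averaging 1000 or more had a ratio below 1 in ER against EE, though 6 of these 7 intervals included 1, and 2876 of the 5792 genes at that level were also below 1. With scaling by the neuronal list, Slc1a2 turned to 0.0085 on the log2 scale in that contrast. ER was the lowest library for 6 of the 10 genes, SH for 3 and EE for 1. The summed scaled counts of the 10 genes were 99626 in ER, 101327 in EE and 100687 in SH. The sum was lower in ER than in EE, at 0.983 (0.975 to 0.992), and lower in ER than in SH, at 0.989 (0.981 to 0.998). EE and SH did not differ in this sum, at 1.006 (0.998 to 1.02). A sum lower in ER than in EE was not particular to these genes. It was also seen for the neuronal list, at 0.993 (0.988 to 0.997), and the oligodendrocyte list, at 0.967 (0.960 to 0.974). The sum of a wider list of astrocyte genes went the other way, at 1.01 (1.008 to 1.02), from 339185 in EE to 343469 in ER. Its gene Sparcl1 alone went from 58199 in EE to 65751 in ER, so the direction of that sum follows this gene. Of the 37 single ratios of that list in ER against EE, 20 were below 1 and 17 above.

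Against SH the transporters lay above 1 and the connexins below it, while in ER against EE all 4 ratios were below 1. The pairs can be set side by side within each library, which needs no scaling. This comparison was chosen after the values had been seen. Reads of Gja1 and Gjb6 together were 0.526 of those of Slc1a2 and Slc1a3 together in ER, 0.539 in EE and 0.572 in SH. The SH library stood highest. Against SH, this ratio was multiplied by 0.920 (0.891 to 0.950) in ER and by 0.944 (0.914 to 0.975) in EE, with large-sample 95% intervals of the odds ratio. In ER against EE the factor was 0.975 (0.943 to 1.007), so these libraries were not separated beyond counting error. Gja1 gives most reads of the connexin pair and Slc1a3 most of the transporter pair, so the ratio follows chiefly these genes.

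Other genes of the glutamate-glutamine cycle, 23 in all, were set beside the transporters. In EE against SH, 7 had an interval above 1 and 2 below, with a median log2 ratio of 0.025. In ER against SH, 6 lay above and 1 below, with a median of 0.014. In ER against EE, 2 lay above and 5 below, with a median of -0.010. Over all genes tested the shares were 9.27% above and 8.94% below in EE against SH, 7.59% and 7.89% in ER against SH, and 6.47% and 6.50% in ER against EE. These shares also serve as the background of the lists that follow. Glul, the glutamine synthetase of astrocytes, had 25325 in ER, 25554 in EE and 26192 in SH. It was slightly lower in both libraries against SH, at 0.967 (0.950 to 0.984) in ER and 0.976 (0.959 to 0.993) in EE, the opposite side from the transporters. Slc25a18, a mitochondrial glutamate carrier, had 1328 in ER, 1204 in EE and 1397 in SH, with a ratio of 0.862 (0.797 to 0.932) in EE against SH.

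On the neuronal side of the cycle, Slc17a6 and Slc17a8 were higher in both libraries than in SH, but Slc17a7, the vesicular transporter VGLUT1, was not. Slc17a7 had 58098 in ER, 57766 in EE and 57756 in SH. Slc17a6, the vesicular glutamate transporter VGLUT2, had 533 in ER, 616 in EE and 442 in SH. Its ratios were 1.21 (1.06 to 1.37) in ER and 1.39 (1.23 to 1.58) in EE. Slc17a8, the vesicular transporter VGLUT3, had 132 in ER, 112 in EE and 77.7 in SH, and was the 1 gene of the list past the size rule, at 1.70 (1.28 to 2.29) in ER against SH. Slc1a1, the neuronal glutamate transporter EAAC1, had 4685 in ER, 4449 in EE and 4625 in SH. It differed only in ER against EE, at 1.05 (1.01 to 1.10). Astrocytes also take up GABA, through GAT-3, encoded by Slc6a11. Its scaled counts were 1384 in ER, 1384 in EE and 1561 in SH, so it was lower at 0.886 (0.823 to 0.954) in ER against SH and 0.887 (0.824 to 0.954) in EE against SH.

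Genes of the perivascular endfoot, 16 in all, gave few calls in each contrast. In EE against SH 3 had an interval above 1 and 0 below, beside 9.27% and 8.94% of all genes tested. In ER against SH 1 lay above and 2 below, beside 7.59% and 7.89%. In ER against EE 0 lay above and 2 below, beside 6.47% and 6.50%. Kcnj10, the potassium channel Kir4.1 that sits near aquaporin-4, had 673 in ER, 684 in EE and 667 in SH, and all its intervals included 1. Mlc1, a membrane protein of astrocyte junctions, had 7280.1 in ER, 7638 in EE and 7393 in SH, with a ratio of 0.953 (0.922 to 0.985) in ER against EE. Gpr37l1, a receptor of astrocytes, was placed much as Gja1 was, with 4223 in ER, 4415 in EE and 4464 in SH. Its ratio was 0.946 (0.907 to 0.987) in ER against SH. Agrn also lay below 1 in that contrast, at 0.951 (0.921 to 0.982), and Dag1 lay above, at 1.06 (1.02 to 1.11). Above 1 in EE against SH were Utrn at 1.10 (1.03 to 1.17), Dmd at 1.07 (1.01 to 1.13) and Mlc1 at 1.03 (1.0003 to 1.07). The other connexins, pannexins and their partners (12 genes) had 2 intervals above and 1 below 1 in EE against SH, 1 above and 1 below in ER against SH, and 0 above and 2 below in ER against EE. The last 2 were Panx1, a pannexin, at 0.900 (0.815 to 0.995), and Tjp1, a scaffold protein of junctions, at 0.939 (0.894 to 0.987).

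Of 17 other transcription factors of glia, 3 had an interval above 1 and 3 below in EE against SH, 1 above and 2 below in ER against SH, and 3 above and 2 below in ER against EE. Above 1 in EE against SH were, among others, Zbtb20 at 1.48 (1.03 to 2.14) and Nr2e1 at 1.23 (1.01 to 1.49), and Rbpj was above 1 in ER against SH. Lhx2 and Sox2 were lower than in SH in both libraries. Lhx2, a homeobox factor of the developing forebrain, had 976 in ER, 1078 in EE and 1351 in SH. Its ratios were 0.722 (0.664 to 0.785) in ER and 0.798 (0.735 to 0.866) in EE, and the ER value was the lowest ratio of the 17 in that contrast. Sox2, a partner of Sox9 in neural precursors that adult astrocytes keep, had 1376 in ER, 1437 in EE and 1604 in SH. Its ratios were 0.857 (0.797 to 0.922) in ER and 0.896 (0.833 to 0.963) in EE. Hes1, a target of Notch signalling, shared with Sox9 its low value in EE, with 386 in ER, 323 in EE and 402 in SH. Its ratio was 0.802 (0.689 to 0.932) in EE against SH.

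Genes known from reactive astrocytes were mostly read at low levels. Of 28 such genes measured, 20 averaged under 100 scaled counts, where intervals are wide. In EE against SH 1 had an interval above 1 and 2 below, in ER against SH 1 lay above and 0 below, and in ER against EE 1 lay above and 1 below. Amigo2, a cell adhesion gene, had 342 in ER, 262 in EE and 382 in SH. It was low in EE, at 0.684 (0.581 to 0.804) against SH, and ER was 1.31 (1.11 to 1.54) times EE. Tm4sf1 went the other way, at 1.24 (1.01 to 1.52) in EE against SH and 0.804 (0.653 to 0.988) in ER against EE. The call in ER against SH was Hspb1, at 1.38 (1.08 to 1.77). Osmr, the oncostatin M receptor, was the 1 gene of the list past the size rule, at 0.439 (0.196 to 0.920) in EE against SH, but on scaled counts of only 11.4 in EE and 25.9 in SH. Vim, the filament protein vimentin, had 582 in ER, 608 in EE and 611 in SH, and all its intervals included 1.

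A wider list of astrocyte genes held more intervals below 1 than above 1 against SH. Of 37 genes measured, 12 had an interval below 1 and 3 above in EE against SH, with a median log2 ratio of -0.043. In ER against SH 16 lay below and 2 above, with a median of -0.038. In ER against EE 5 lay below and 3 above, with a median of -0.0064. None passed the size rule in any contrast. Of the 23 genes on the list averaging 1000 or more, 12 lay below 1 in EE against SH and 14 in ER against SH. The background shares at that level are the 15.4% and 13.9% given above. Whether the list as a whole stands apart from other genes was not tested.

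Both contrasts use the same SH library, so a low or high reading in it enters both. Below 1 in both were 11 genes of the wider list: Agt, Apoe, Atp1b2, Clu, Cst3, Itih3, Ndrg2, Plpp3, Slc4a4, Sparcl1 and Ttyh1. Only Mt3 lay above 1 in both. Apoe, the lipid carrier made mainly by astrocytes and microglia in the brain, had 59954 in ER, 60936 in EE and 63219 in SH. Its ratios were 0.948 (0.938 to 0.959) in ER and 0.964 (0.953 to 0.975) in EE. Sparcl1 encodes hevin, a secreted protein with a part in synapse formation. It had 65751 in ER, 58199 in EE and 67381 in SH. EE stood apart, at 0.864 (0.854 to 0.873) against SH, while ER was 1.13 (1.12 to 1.14) times EE. Itih3, a protein that binds hyaluronan, followed the same order, with 12199 in ER, 11512 in EE and 13718 in SH.

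**Figure D3:**
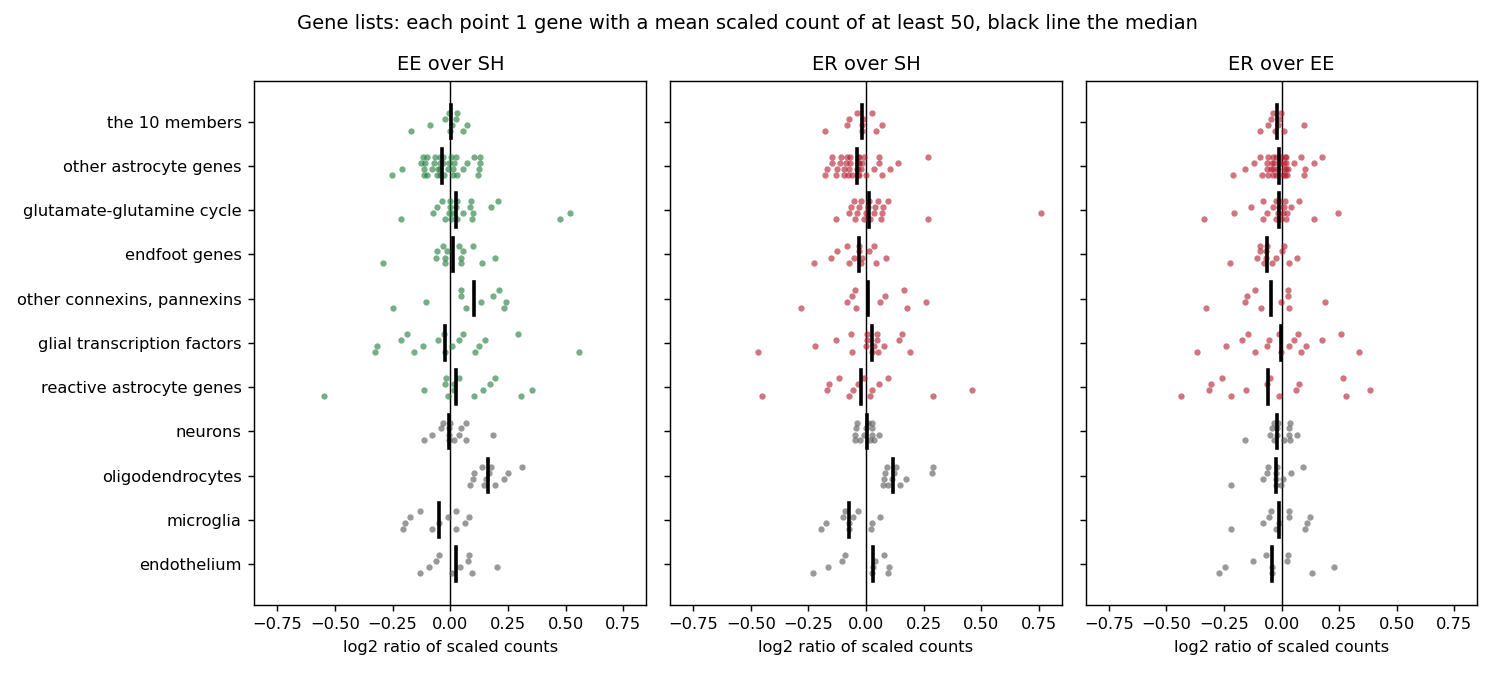
Log2 ratio of scaled counts (horizontal) of genes on each list in EE over SH, ER over SH and ER over EE. Each point is 1 gene averaging 50 or more scaled counts, and black lines are medians of those points. Coloured points are astrocyte and related lists, grey points are lists of other cell types. The 10 members centre near 0, while all 12 oligodendrocyte genes lie to the right of 0 in both panels against SH.

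Markers of other cells in the punch moved beside these genes. All 12 oligodendrocyte genes were above 1 against SH in both contrasts, with intervals above 1 for 11 in EE and 10 in ER. Their median log2 ratios were 0.16 in EE and 0.12 in ER, and their summed scaled counts were 134734 in ER, 139322 in EE and 123719 in SH. The 14 neuronal genes had sums of 376307 in ER, 379019 in EE and 374014 in SH. The sum differed slightly but beyond counting error, at 1.01 (1.009 to 1.02) in EE against SH and 1.006 (1.002 to 1.01) in ER against SH. In ER against EE it was 0.993 (0.988 to 0.997). Intervals lay above 1 for 5 of the 14 and below for 3 in EE against SH, for 3 and 3 in ER against SH, and for 4 and 6 in ER against EE. Gad1 differed most in EE against SH, at 1.14 (1.10 to 1.17), and in ER against EE, at 0.896 (0.870 to 0.923). The sums of 12 microglial genes were 11187 in ER, 11324 in EE and 11612 in SH. Those of 10 endothelial genes were 6963 in ER, 7063 in EE and 6914 in SH. None of these genes was at 0 in any library. Of the 4 ependymal and choroid plexus genes measured, Ttr was at 0 in ER, 4.14 in EE and 79.7 in SH, and no ratio is given against a library at 0. Ttr encodes transthyretin, the main product of the choroid plexus. The part of these markers in the differences above was not tested.

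Set against the neuronal list within each library, the 10 astrocyte genes were level or slightly low. The ratio of members to neuronal reads was multiplied by 0.983 (0.974 to 0.993) in ER against SH and by 0.993 (0.983 to 1.003) in EE against SH. In ER against EE it was multiplied by 0.990 (0.980 to 1.0002), an interval that included 1. The neuronal sum itself differed between libraries, as given above. The ratio of members to oligodendrocyte reads was multiplied by 0.909 (0.898 to 0.919) in ER and by 0.894 (0.883 to 0.904) in EE against SH, where the oligodendrocyte sum was higher in both. In ER against EE that factor was 1.02 (1.005 to 1.03). The wider astrocyte list against the neuronal list gave 0.954 (0.948 to 0.960) in ER and 0.935 (0.929 to 0.941) in EE against SH, and 1.02 (1.01 to 1.03) in ER against EE. Sparcl1 gave 64097 of the 334830 reads of the wider list in ER, 56291 of 328065 in EE and 67662 of 359412 in SH. The order of ER and EE in these factors follows chiefly this gene. The members and the wider list thus gave different sizes of difference from SH over the same neuronal reads. These ratios of sums were chosen after the values had been seen.

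**Figure D4:**
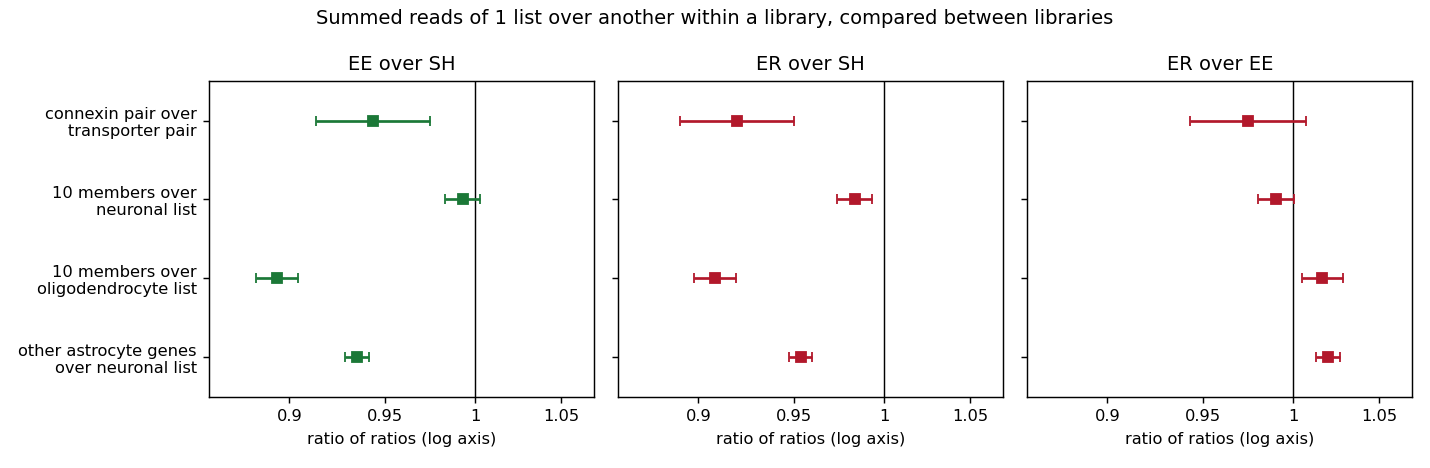
Ratio of summed reads of 1 gene set to another within a library, compared between libraries as EE over SH, ER over SH and ER over EE (horizontal, log axis). Squares are ratios of ratios and whiskers are large-sample 95% counting intervals. The connexin pair over the transporter pair lies below 1 in both panels against SH, at 0.944 in EE and 0.920 in ER.

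The genes with the nearest patterns were also listed for each member. Likeness was the distance between genes in the plane of the EE against SH and ER against SH log2 ratios, over 3 libraries and 220 candidate genes of the other lists. Both ratios share SH, so the distance describes these libraries only. Gja1 was nearest to Gpr37l1, at a distance of 0.0065 log2 units. Gjb6 was nearest to Pdk4, at 0.023, and then to Etnppl, at 0.025. Slc1a3 was nearest to the microglial gene Aif1, at 0.012, and to the neuronal gene Thy1, at 0.012. Slc1a2 was nearest to Pc, at 0.014, and Sox9 to the microglial gene P2ry12, at 0.0055. The nearest genes to S100b and Aldoc were the same 3: Ldhb, Slc1a6 and Plec. The neighbours thus included neuronal and microglial genes, and with 3 libraries their order carries no error.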

How the data were processed

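Punches of the basolateral amygdala of 10 rats were pooled per condition, and strand-specific libraries were prepared from poly(A) RNA, per the labels. The submitters' processing notes name HISAT2 and DESeq2. Not given in the sources used here are their versions, the counting setting, the annotation and the genome build. The deposited signal of a gene was its read number over the size factor of that library. Values were whole multiples of 1.0258 (ER), 1.0339 (EE) and 0.99584 (SH), the value of 1 read, for 100% of values within 0.001 of a read. Totals were 29558555, 29263063 and 30334384 reads. Without molecular identifiers, reads may be copies of 1 molecule, so intervals cover counting error only, and pooling removes the spread between rats.

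Ratios of scaled counts carry no pseudocount; log2 ratios used a pseudocount of 1, which draws genes with few reads toward 0. Intervals were exact 95% Clopper-Pearson intervals of the recovered reads. A count test could not be run, since no residual degrees of freedom exist with 1 library per condition. The filter was a mean scaled count above 1 in protein-coding genes. The members and 19 further lists were chosen with earlier results of these data known. The text names all 10 members, up to 4 genes per list and contrast that averaged 50 or more with an interval without 1, taken by largest log2 ratio, and Glul, Slc1a1, Kcnj10, Vim, Aldoa and Apoe whatever their values, except genes that are not reported here; Aldoa had intervals that included 1 in all contrasts. Slc17a7, Osmr, Ttr, Myh11, S100a4, S100a11 and genes of the wider astrocyte list named without values were chosen after their values were seen. Sequences came from the RefSeq promoter table of build GRCr8, where 9 of the 10 members matched by symbol.

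Alternatives were scaling by library totals, edgeR TMM and upper quartile, pseudocounts of 0.5 and 5, a 99% interval, other size rules and level filters, and the members without S100b and Sox9. Scaling by the neuronal list and ratios of sums were added after the data were seen. The procedure was tested on simulated data. Scaling factors were computed with edgeR 4.0.16 in R 4.3.3. The rest used scipy 1.17.1, matplotlib 3.10.9, pandas 2.3.3 and numpy 2.4.6 under Python 3.11.15.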

Additional observations from a re-analysis of the deposited data

How the results depend on the processing

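Scaling by the neuronal list, chosen after seeing the data, turned the members' median log2 ratio in EE against SH to -0.016 from 0.0029, where most members' intervals include 1. In EE against SH, members with an interval above 1 numbered 1 with scaling by the neuronal list and 1 with a 99% interval (2 in the report). Those below 1 numbered 2 (Gja1 and Sox9) and 0 (1 in the report). In ER against SH, those above 1 numbered 0 with scaling by library totals, by upper quartile or by the neuronal list and 0 with a 99% interval (1 in the report), and those below 1 numbered 1 (Gja1) with a 99% interval and 3 with scaling by the neuronal list, which added S100b (2 in the report). In ER against EE, those below 1 numbered 3 with scaling by library totals or upper quartile (1 in the report), the added genes being Aqp4 and Slc1a3. Requiring a mean of at least 50 left 132, 96 and 92 genes past the size rule in EE against SH, ER against SH and ER against EE, where the report's rule gave 358, 282 and 285. The neuronal scaling moved the median of all genes by at most 0.019 log2 units. The other scalings moved it by less.

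No paired analysis was possible because each condition has 1 library. No library was left out, since each is its whole condition, and no value has a replicate error. Depth limits Aldh1l1, Gjb6 and Sox9 most, whose intervals were the widest of the members.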

Other observations

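The S100 family and folate genes, which sit beside S100b and Aldh1l1, were not described above. S100a10, an annexin partner, had scaled counts of 415 in ER, 541 in EE and 499 in SH, with ratios of 0.833 (0.729 to 0.951) in ER against SH and 0.768 (0.673 to 0.876) in ER against EE. S100a16 had 1762 in ER, 1786 in EE and 1579 in SH, and was higher than in SH in both, at 1.12 (1.04 to 1.20) in ER and 1.13 (1.06 to 1.21) in EE. In EE against SH 2 of the 9 S100 genes measured passed the size rule on few reads, S100a11 at 2.45 (1.17 to 5.50), with 26.9 in EE and 10.95 in SH, and S100a4 at 0.423 (0.189 to 0.881), with 11.4 in EE and 26.9 in SH. Over all genes tested 2.13% passed the size rule in that contrast. S100b itself was level. Of the 10 folate genes, 2 had an interval above 1 in ER against EE: Shmt2, a mitochondrial serine hydroxymethyltransferase, with 869.9 in ER and 749 in EE, and Mthfd2, with 142 in ER and 106 in EE. Over all genes tested 6.47% lay above 1 in that contrast. Against SH, 0 of the 10 had an interval without 1 in either contrast, where 7.59% to 9.27% of all genes lay on each side.

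Of 8 mural genes, 2 had an interval above 1 and 1 below in EE against SH, where 9.27% of all genes tested lay above and 8.94% below. In ER against SH 2 lay above and 2 below, beside 7.59% and 7.89% of all genes tested. In ER against EE 2 lay above and 2 below, beside 6.47% and 6.50%. Among the smooth muscle genes, Acta2 had 255 in ER, 356 in EE and 331 in SH, at 0.773 (0.653 to 0.913) in ER against SH, and Tagln had 299.5 in ER, 386 in EE and 379 in SH, at 0.789 (0.676 to 0.922). Myh11 had 567 in ER, 544 in EE and 611 in SH, and its intervals included 1. Kcnj8, a channel of pericytes, had 143 in ER, 105 in EE and 104 in SH, and was higher at 1.38 (1.06 to 1.79) in ER against SH.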
